A study of Mus musculus with 18 samples.

Results

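The genes described here are 9 on an nCounter mouse inflammation panel that belong to TGF-beta signaling and matrix remodeling. The choice was made by name among 254 panel genes, without a rule on values but with earlier results of these data known. The 9 are the ligands Tgfb1, Tgfb2 and Tgfb3, the type I receptor Tgfbr1, the inhibitory SMAD gene Smad7, the basic helix-loop-helix transcription factor genes Twist2 and Tcf4, and the matrix metalloproteinase genes Mmp3 and Mmp9. The assay counts color-coded probes bound to RNA, here 100 ng of total RNA from TA muscle, a muscle of the lower leg. The study set muscle of tumor-bearing mice against matched controls in models of cancer cachexia, in which a tumor brings on wasting of muscle and fat.

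The 18 samples, from male mice, form 6 groups of 3 that are named by model, tumor status and a letter from A to C. C26 mice were of strain CD2F1 and were injected with cells of the C26 colon carcinoma line, while their controls were non-tumor-bearing CD2F1 mice. LLC mice were of strain C57/B6 and were injected with Lewis lung carcinoma cells, against non-tumor-bearing C57/B6 controls. KPP mice, also of strain C57/B6, received tamoxifen by intraperitoneal injection at 1 mg per 10 g to start tumor formation, against non-tumor-bearing C57/B6 controls. The labels do not spell out the KPP alleles or their driver, the genotype of the KPP controls, what the controls were injected with, the mice's ages or the time of sampling. In KPP an effect of the tumor therefore cannot be told apart from one of tamoxifen or genotype. In published work the name KPP belongs to a pancreatic cancer model. Nor do the labels say that each sample came from a separate mouse, so p-values measure the spread between samples.

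TGF-beta ligands bind a type II receptor that recruits and activates the type I receptor encoded by Tgfbr1, which then phosphorylates SMAD2 and SMAD3. These enter the nucleus with SMAD4 and drive matrix genes and Smad7, whose product binds the type I receptor and shuts the pathway down. In skeletal muscle TGF-beta is known for holding back myoblast differentiation and for driving fibroblasts and fibro-adipogenic cells to deposit matrix. MMP3 (stromelysin-1), made mainly by stromal cells, cleaves proteoglycans, fibronectin and laminin and can activate other matrix proteases. MMP9 (gelatinase B), made in muscle by infiltrating leukocytes and activated muscle cells among others, cleaves denatured collagen and collagen IV of basement membranes.

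Mmp3 had the largest fold change of the 9 genes, and its upstream sequence is shown because it is the member whose promoter carries the element best known for its induction. AP-1, the FOS and JUN dimer, binds TGANTCA. Of the 9 symbols all are in the RefSeq gene table, and 5 genes had a promoter that is shown or searched here (Tgfb1, Tgfb2, Tgfbr1, Twist2 and Mmp3), each window running from 250 bases before to 50 bases after the start. The 250 bases before the Mmp3 start, from RefSeq on GRCm38.p6 at chr9:7445572-7445821, plus strand, are printed with the AP-1 match and the TATAAA match in capitals.
Mmp3: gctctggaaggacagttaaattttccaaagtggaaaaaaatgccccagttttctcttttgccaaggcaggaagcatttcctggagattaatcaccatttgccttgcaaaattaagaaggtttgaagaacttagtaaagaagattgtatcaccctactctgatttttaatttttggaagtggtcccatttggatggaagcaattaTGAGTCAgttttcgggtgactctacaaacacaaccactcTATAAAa
The AP-1 match begins at base -46 and the TATAAA match at base -7, counted from the annotated start as +1. Searched on both strands, TGANTCA occurs in 7.81% of 32851 promoters of the same length and TATAAA in 13.6%. Among the windows of these 5 genes, that of Mmp3 held the only AP-1 match. The SMAD palindrome GTCTAGAC, present in 0.213% of promoters, matched in no window of the 5 genes. The single SMAD element CAGAC, present in 49.6%, matched in Tgfb2 (2 matches) and in 1 of the 2 start sites of Tgfbr1. The E-box CANNTG, the letters that Twist and Tcf4 proteins bind, is in 72.3% of promoters and matched in Mmp3 (2), Tgfb2 (1) and 1 start site of Tgfbr1. These matches are letters in a window and show no binding.

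Values are the deposited normalized signals, scaled by the 6 housekeeping genes of the panel within each model, so that levels are compared within a model only and not between genes. A fold change is tumor-bearing over control on the scale log2(value + 1), which understates changes of low genes. Each adjusted p is from limma's moderated test fitted to all 18 samples. Benjamini-Hochberg adjustment ran over the 168 genes that reached 20, called background here, in at least 3 samples, and a gene passed below 0.05. As read from the values, a background was already subtracted in C26 and KPP, so there 20 is a limit set for this report. All 9 members were among the 168. The counts behind all gene values of a sample ranged from 29686 to 402728, with 29686 to 50738 in the C26 tumor-bearing samples against 75519 to 94990 in their controls. One count was worth between 0.603 and 3.222 units of signal, the highest in KPP control B. As a check of tissue, 5 of 6 skeletal muscle markers were above background in all 18 samples, the exception being the slow-fiber gene Myl2. In these bulk samples fewer cells of a type and less RNA per cell cannot be told apart.

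One library stood apart before any member is considered. C26 control A had the highest summed signal of 10 macrophage and monocyte markers in its group (the range was 1270 to 7074); for Mmp3 it read 784 where controls B and C read 122 and 129. The C26 controls also had the widest spread, with a median SD of log2 values over all genes of 0.64, compared with 0.11 for LLC controls and 0.27 for KPP controls. A fit to the 6 samples of a model alone, over the genes above background there, is therefore given beside each call of a member, other than that of Mmp9 in C26, which was below background there and not in the C26 fit.

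The scaling genes moved too. Gapdh and Pgk1, both glycolytic, stood at log2 fold changes of 0.79 and 0.85 in C26 and of -0.27 and -0.55 in KPP. Rescaling each sample to Cltc, Gusb, Hprt and Tubb5 shifts the log2 signal by 0.41 in C26, by -0.06 in LLC and by -0.20 in KPP before the pseudocount is added, so fold changes of low genes move by other amounts. Member results are given under both scalings where they differ.

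In C26 muscle Smad7 rose and Mmp3 fell. Mmp9 also passed downward, but on overlapping values below background throughout, so that no fall is read from it. It was among the 168 genes only through LLC and KPP samples. These 3 members passed of 9, against 30.4% of the 168 genes (28% after rescaling, under which Smad7 and Tcf4 passed upward and Mmp3 downward). Called genes in C26 were 15 higher and 36 lower as deposited, and 28 higher and 19 lower after rescaling. The 9 members had a median log2 fold change of -0.13 beside -0.31 over all tested genes, and 0.28 beside 0.09 after rescaling. In LLC muscle no member passed, nor did any of the 168 genes (0 percent called under either scaling; 4 genes had an unadjusted p under 0.05 as deposited and 6 after rescaling). In KPP muscle Mmp9 fell, 1 member of 9 against 11.3% of all genes (11.9% after rescaling, with Mmp9 again). Fitted to its own samples, C26 had 0 of 7 members called against 4.69% of 128 genes, LLC 0 of 8 against 6.2% of 129 and KPP 1 of 9 (Mmp9) against 3.82% of 157. With rescaling as well, a combination chosen after seeing the data, C26 had 1 of 7 (Smad7) against 6.25%, LLC 0 of 8 against 0.775% and KPP 1 of 9 (Mmp9) against 6.37%.

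**Figure D1:**
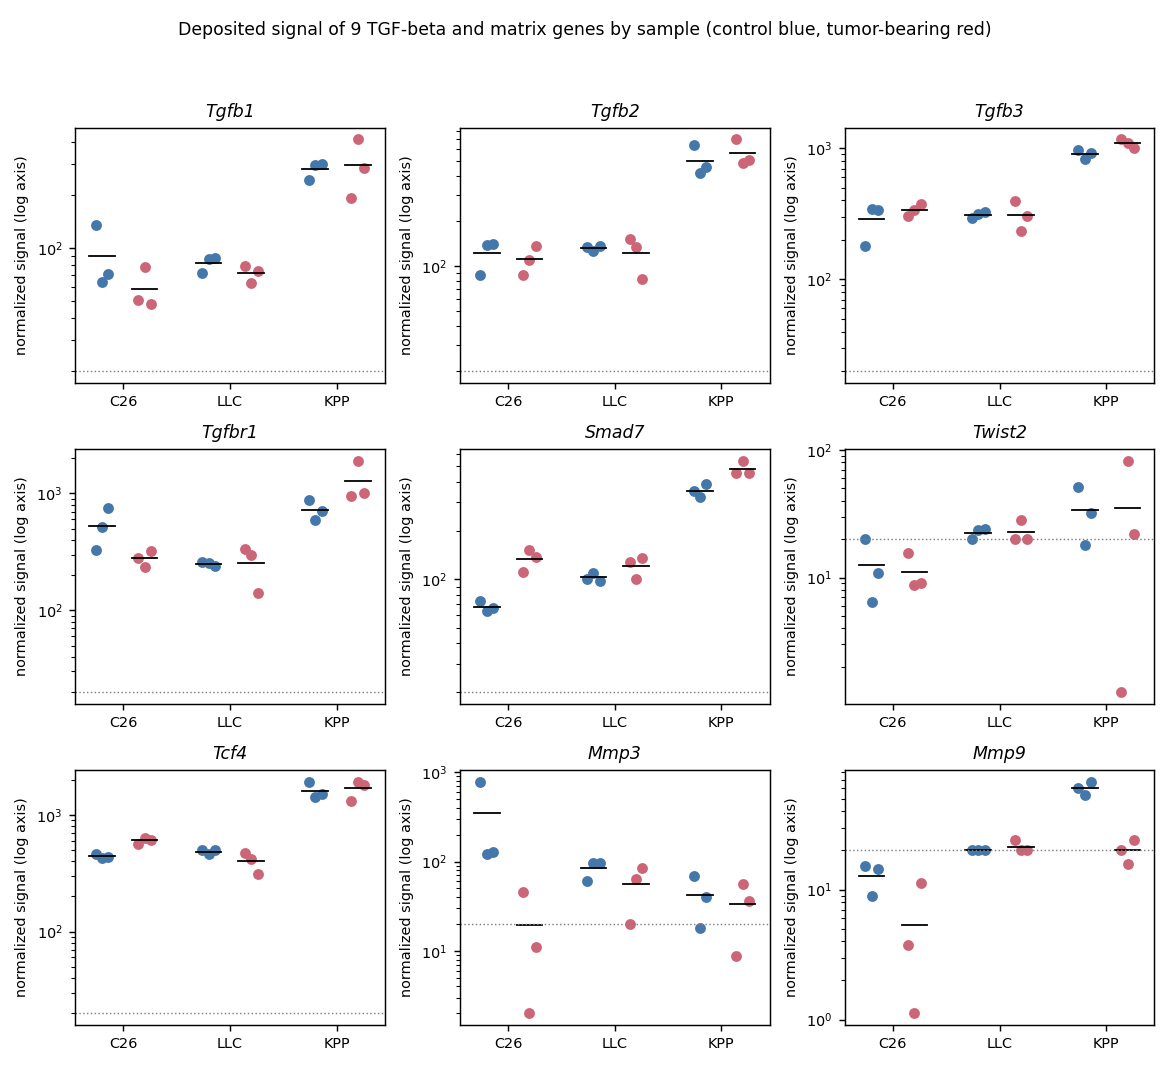
Deposited normalized signal (log axis) of each of the 9 genes, with 1 point per sample, controls in blue, tumor-bearing samples in red and a bar at the mean of 3; the dotted line is the background limit of 20. In C26 the red Smad7 points (110 to 153) lie above all blue ones (63.3 to 73.2), the red Mmp3 points (2.01 to 45.3) lie below all blue ones (122 to 784), and in KPP the red Mmp9 points (15.6 to 24.2) lie below all blue ones (53.6 to 67.7).

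Among the ligands, Tgfb1 encodes the isoform most studied in fibrosis. In C26 its signal was 134, 64.2 and 71.2 in controls A to C and 50.5, 77.4 and 48.2 in the tumor-bearing samples. Control A was the highest of the 6 and tumor B lay above 2 of the controls, so the groups overlapped. The log2 fold change was -0.56 (SE 0.31, adjusted p = 0.179), or -0.23 without control A and -0.16 after rescaling. In LLC the controls read 72.2, 86.6 and 87.0 and the tumor-bearing samples 79.0, 63.2 and 73.7, overlapping (-0.19, SE 0.31, adjusted p = 1). KPP controls read 242, 295 and 298 and the tumor-bearing samples 192, 411 and 285, so that the tumor-bearing group held both the lowest and the highest value (0.03, SE 0.31, adjusted p = 0.979, or -0.18 after rescaling).

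Tgfb2, the isoform with a prominent role in heart and palate development, read 87.7, 138 and 140 in C26 controls and 86.9, 110 and 135 in the tumor-bearing samples. Both groups had a low sample A and they overlapped (log2 fold change -0.13, SE 0.28, adjusted p = 0.755; the sign turned to 0.28 after rescaling, without passing). LLC controls were tightly grouped at 134, 126 and 136, and the tumor-bearing samples read 151, 134 and 82.1, with tumor C below every control (-0.15, SE 0.28, adjusted p = 1). In KPP the controls read 638, 414 and 457 and the tumor-bearing samples 699, 487 and 509, overlapping, at 0.17 (SE 0.28, adjusted p = 0.767), or -0.03 after rescaling.

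Tgfb3 encodes the third isoform. C26 controls read 180, 343 and 336 and tumor-bearing samples 306, 341 and 373. Control A was far below the other 5 samples, which lay within 306 to 373. The log2 fold change of 0.30 (SE 0.24, adjusted p = 0.354) became -0.00 without control A, while after rescaling all 3 tumor-bearing samples lay above the controls at 0.71 (adjusted p = 0.0691). LLC controls read 291, 315 and 328 and tumor-bearing samples 394, 235 and 307, overlapping (-0.03, SE 0.24, adjusted p = 1). In KPP the controls read 966, 833 and 917 and the tumor-bearing samples 1167, 1101 and 1000, all above the controls, though the gain was small (0.27, SE 0.24, adjusted p = 0.546) and the groups overlapped after rescaling (0.06).

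No ligand passed in any model under either scaling. The 95% intervals of the 9 ligand fold changes as deposited all lay between -1.21 and 0.82 on the log2 scale, the lowest bound being that of Tgfb1 and the highest that of Tgfb3, both in C26.

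The type I receptor gene stood below its controls in C26 and above them in KPP, without passing in either model. In C26, Tgfbr1 read 326, 514 and 753 in controls and 278, 236 and 320 in the tumor-bearing samples, all 3 below the lowest control, with 320 in tumor C close to 326 in control A. The log2 fold change was -0.86 (SE 0.36, adjusted p = 0.0872). It passed only without control A (-1.17, adjusted p = 0.0334), and after rescaling it was -0.45 (adjusted p = 0.327) with overlapping groups. KPP controls read 884, 588 and 713 and the tumor-bearing samples 943, 1912 and 1007, all above the controls, with tumor B far above the other tumor-bearing samples. This log2 fold change was 0.76 (SE 0.36, adjusted p = 0.203), 0.44 without tumor B, and 0.56 after rescaling, when the groups still did not overlap. In LLC the controls lay close together at 258, 255 and 241 and the tumor-bearing samples read 332, 297 and 140, on both sides of them (-0.07, SE 0.36, adjusted p = 1).

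Of the 9 members, Tgfbr1 was the only one whose tumor effect differed between models as deposited. The C26 effect minus the KPP effect was -1.62 (SE 0.52, adjusted p = 0.0440), beside 16.1% of all genes passing in that comparison. Rescaling ended the call (-1.01, adjusted p = 0.141), and it was made in 7 of 18 fits that each left out 1 sample. No member differed between C26 and LLC as deposited, where 14.9% of genes passed, or between LLC and KPP, where 0.595% passed under both scalings. After rescaling, Smad7 and Tcf4 differed between C26 and LLC (1.20, adjusted p = 0.00994, and 1.21, adjusted p = 0.00587; 16.1% of genes passed) and between C26 and KPP (1.12 and 1.01, each with adjusted p = 0.0132; 21.4% passed).

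Smad7, the feedback inhibitor, rose in C26. In C26 its signal was 73.2, 63.3 and 66.1 in controls and 110, 153 and 137 in the tumor-bearing samples. Every tumor-bearing sample lay well above the highest control, and the controls lay close together. The rise was 1.95-fold (95% interval 1.50 to 2.54; log2 0.96, SE 0.18, adjusted p = 0.00222), and it passed in all 18 fits that left out 1 sample (0.86 to 1.09). The C26 samples alone gave an adjusted p of 0.0594, or 0.0282 after rescaling, when the log2 fold change was 1.37. In KPP the controls read 351, 324 and 389 and the tumor-bearing samples 454, 544 and 456, all above the controls, but the log2 fold change of 0.45 (SE 0.18, adjusted p = 0.129) did not pass and the groups overlapped after rescaling (0.24). In LLC the controls read 100.2, 110.0 and 97.4 and the tumor-bearing samples 127, 101 and 135, overlapping (0.23, SE 0.18, adjusted p = 1).

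A ratio within a sample does not depend on the scaling. The ratio of Smad7 signal to Tgfbr1 signal, chosen after seeing the data, averaged 0.145 ± 0.071 (SD, n = 3) in C26 controls and 0.491 ± 0.136 in the tumor-bearing samples. Its values were 0.224, 0.123 and 0.0877 in controls and 0.397, 0.647 and 0.429 in tumor-bearing samples, which did not overlap. The exact two-sided permutation p was 0.1, the smallest that 3 against 3 allows. This outcome was fixed by the results above, since every C26 tumor-bearing sample was above all controls for Smad7 and below them for Tgfbr1. The C26 ratio is therefore a description and no further evidence. In LLC it averaged 0.408 ± 0.022 and 0.563 ± 0.350, with tumor C alone at 0.966 and the other two below every control. In KPP it averaged 0.498 ± 0.088 and 0.406 ± 0.106, overlapping (exact permutation p = 0.4). Of 12 such comparisons (4 ratios in 3 models) only 1 other had no overlap, the ratio of Tgfb3 to Tgfb2 in C26, at 2.31 ± 0.23 in controls and 3.13 ± 0.39 in tumor-bearing samples. Adjusted over the 12, the smallest p was 0.6, and at this group size none could pass a threshold of 0.05.

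**Figure D2:**
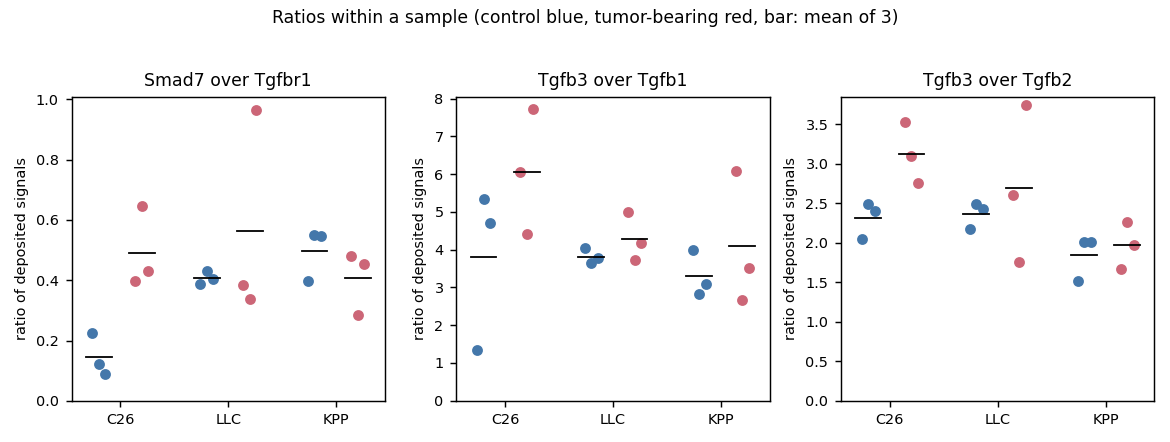
Ratios of deposited signals within each sample (linear axes from 0), with controls in blue, tumor-bearing samples in red and a bar at the mean of 3. The C26 ratio of Smad7 to Tgfbr1 lies at 0.0877 to 0.224 in controls and at 0.397 to 0.647 in tumor-bearing samples, while the LLC and KPP groups overlap.

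Twist2 encodes a repressor-type helix-loop-helix factor of mesenchymal and muscle precursor cells, and Tcf4 an E protein that pairs with such factors (the symbol is also an older name of Tcf7l2, a Wnt pathway gene that is not meant here). Twist2 was near or below background in C26 and LLC. In C26 it read 19.99, 6.44 and 10.9 in controls and 15.5, 8.76 and 9.01 in tumor-bearing samples, so no sample there reached 20. Its log2 fold change there was -0.07 (SE 0.88), or 0.30 after rescaling. In LLC 3 of 6 samples were at the floor of 20 and the others read 23.4, 23.8 and 28.2 (log2 fold change 0.01, or -0.05 after rescaling). KPP controls read 51.1, 18.1 and 32.1 and the tumor-bearing samples 1.27, the lowest value of tumor A, then 82.5 and 22.0. The KPP tumor-bearing group thus held both the lowest and the highest Twist2 signal, and its log2 fold change of -0.97 had an SE of 0.88 (adjusted p = 0.543). The value moved to -2.15 without tumor B (adjusted p = 0.0984), turned to 0.45 without tumor A (adjusted p = 0.646), and stood at 0.05 with values under 20 set to 20.

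Tcf4 was far above background in every sample. In C26 it read 461, 428 and 437 in controls and 565, 634 and 614 in tumor-bearing samples, which all lay above the controls. The log2 fold change was 0.45 (SE 0.20, adjusted p = 0.0924) as deposited and 0.86 (adjusted p = 0.00345) after rescaling, where it passed. The C26 samples alone, rescaled, gave an adjusted p of 0.0712. In LLC the controls read 498, 459 and 496 and the tumor-bearing samples 466, 419 and 313. These overlapped as deposited and lay all below the controls after rescaling (-0.30 and -0.35, SE 0.20 and 0.17, adjusted p = 1 and 0.993). In KPP the controls read 1897, 1423 and 1508 and the tumor-bearing samples 1316, 1924 and 1803, on both sides of the controls (0.06, SE 0.20, adjusted p = 0.931, or -0.15 after rescaling).

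**Figure D3:**
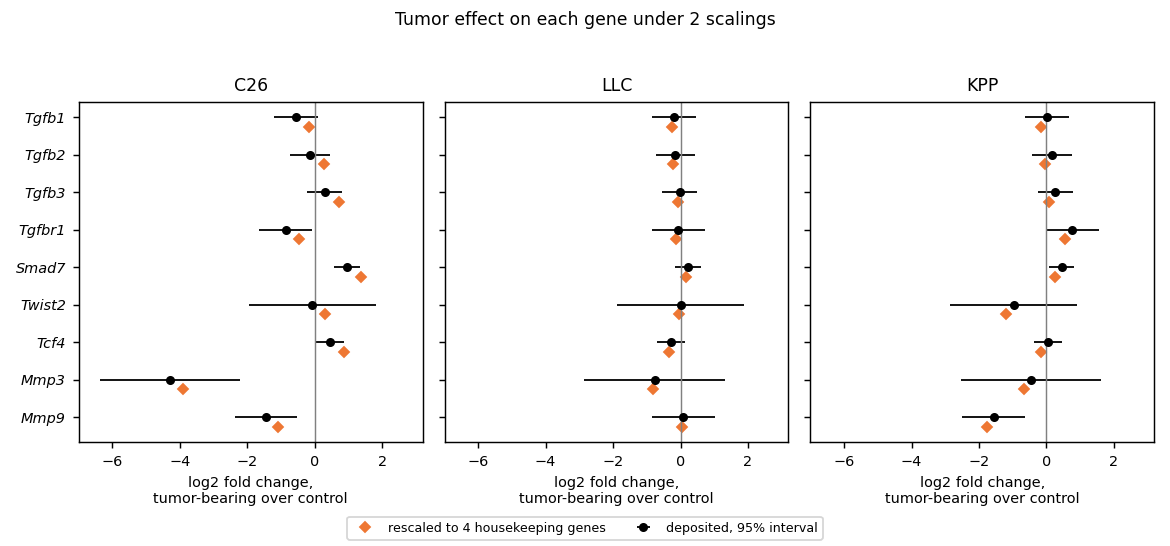
Log2 fold change (tumor-bearing over control) of the 9 genes in each model, with black points and 95% intervals for the deposited scaling and orange diamonds for rescaling to 4 housekeeping genes. Rescaling moves the C26 estimates to the right and the KPP estimates to the left; the C26 interval of Mmp3 runs from -6.36 to -2.20.

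Mmp3 showed the largest fall. Its signal in C26 controls A, B and C was 784, 122 and 129, and in the tumor-bearing samples it was 45.3, 2.01 and 11.2. All tumor-bearing samples were below all controls, although control A alone was far above the other controls. Behind the tumor-bearing values stood about 34.9, 1.8 and 5.1 counts left after background subtraction. The square root of these counts is 16.9%, 74.8% and 44.1% of the value. It leaves out the counts removed as background, so the counting errors are larger than this and the size of the fall is uncertain. The log2 fold change was -4.28 (SE 0.97, 95% interval -6.36 to -2.20, adjusted p = 0.00677). It passed in all 18 fits that left out 1 sample and spanned -5.26 (without tumor A) to -3.29 (without tumor B), with -3.40 without control A. With values under 20 set to 20, the fall stood at -3.09 (adjusted p = 0.00792), and after rescaling it was -3.90 (adjusted p = 0.00710). The C26 samples alone gave an adjusted p of 0.0713.

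In LLC, Mmp3 read 60.8, 95.97 and 96.3 in controls and 20 (the floor, a bound), 64.5 and 84.5 in tumor-bearing samples, overlapping (-0.77, SE 0.97, adjusted p = 1). In KPP it read 68.7, 18.1 and 40.3 in controls and 8.75, 56.0 and 36.5 in tumor-bearing samples, overlapping (-0.47, SE 0.97, adjusted p = 0.825). The value of 18.1 in KPP control B rests on about 5.6 counts. The C26 effect differed from the LLC effect by -3.51 (SE 1.38, adjusted p = 0.0995) and from the KPP effect by -3.82 (SE 1.38, adjusted p = 0.0734), neither of which passed.

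Mmp9 fell in KPP. The controls read 59.9, 53.6 and 67.7 and the tumor-bearing samples 20.2, 15.6 and 24.2. All 3 tumor-bearing samples were far below the lowest control, on about 15.9 to 25.9 counts each, and the controls rested on 16.6 to 74.1. The level dropped to 0.339-fold (95% interval 0.178 to 0.646; log2 -1.56, SE 0.44, adjusted p = 0.0337), at 20.01 ± 4.33 (SD, n = 3) against 60.4 ± 7.06. The KPP samples alone gave an adjusted p of 0.0247 and rescaling gave -1.76 (adjusted p = 0.0224). The direction held without any 1 sample (-1.70 to -1.40), but the call was lost in each of the 6 fits that left out a KPP sample (adjusted p = 0.0605 to 0.116), with quantile normalization (-1.03, adjusted p = 0.0922) and with 1 weight per group (adjusted p = 0.0594).

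In C26, Mmp9 read 15.2, 8.95 and 14.4 in controls and 3.77, 1.12 and 11.2 in tumor-bearing samples. No sample reached the limit of 20, the value of 1.12 was the lowest value of tumor B, and the groups overlapped. The fitted log2 fold change of -1.44 (SE 0.44, adjusted p = 0.0254) passed only on these low values. It was 0 with values under 20 set to 20, and it did not pass after rescaling (-1.09, adjusted p = 0.0955), with median centring (-0.88, adjusted p = 0.150), quantile normalization (-0.62, adjusted p = 0.243), 1 weight per group (adjusted p = 0.158) or a pseudocount of 20 (-0.39, adjusted p = 0.0882). Of the 6 fits that left out a C26 sample 2 kept the call. It was lost without control A (-1.31, adjusted p = 0.0629), control C (-1.35, adjusted p = 0.0560), tumor A (-1.41, adjusted p = 0.0629) or tumor B (-0.83, adjusted p = 0.102). In LLC, 5 of 6 samples stood at the floor of 20 and tumor A at 24.1, so that the gene was at most barely detected there, and the identical floor values lower its estimated spread in the shared fit.

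Groups did not overlap for 4 of the 7 members above background in C26 (Smad7 and Tcf4 higher, Tgfbr1 and Mmp3 lower), beside 42.2% of 128 genes. In LLC they overlapped for all 8, beside 27.1% of 129 genes without overlap. In KPP they did not overlap for 4 of 9 (Tgfb3, Tgfbr1 and Smad7 higher, Mmp9 lower), beside 29.9% of 157 genes. Smad7 was the one member with all tumor-bearing samples on the same side in both C26 and KPP, and rescaling kept this only in C26.

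The kinase arm that TGF-beta receptors can start without SMADs, through TAK1 (Map3k7) and ASK1 (Map3k5) to p38 and JNK, had 3 of 9 genes higher and 0 lower in C26, beside 30.4% of all genes called in either direction, with a median log2 fold change of 0.31 beside -0.31 over all genes. Map2k6, which activates p38, rose from 85.0 ± 32.3 to 392 ± 9.40 (2.26, adjusted p = 0.00262). Map3k7 rose from 380 ± 64.0 to 597 ± 123 (0.65, adjusted p = 0.0261). Mapkapk5, a p38-regulated kinase gene, stood at 2.75 on means of 1.73 and 18.5, both under background. After rescaling 5 of 9 were higher, with Map2k4 and Mapkapk2 added, beside 28% of all genes called. The C26 samples alone called only Map2k6 (adjusted p = 0.0140), beside 4.69% of genes. In KPP 1 of 9 passed, beside 11.3% of all genes, and it went the other way. Map2k6 fell there from 1085 ± 13.7 to 220 ± 175 (-2.61, adjusted p = 0.00210), which the KPP samples alone did not call. In LLC none of the 9 passed.

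The small GTPase and cytoskeleton arm (Rhoa, Rac1, Cdc42, Rock2, Limk1 and Ppp1r12b) had 0 of 6 genes called in any model under either scaling. Over all genes 30.4% were called in C26, 0% in LLC and 11.3% in KPP, or 28%, 0% and 11.9% after rescaling. The medians of the 6 were -0.12 in C26, 0.02 in LLC and -0.02 in KPP.

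Transcription factors that act at AP-1 sites or together with SMADs numbered 13. In C26 1 rose, the muscle factor gene Mef2c (1.16, adjusted p = 0.0146), and 1 fell, Myc (-2.27, adjusted p = 0.00677), beside 30.4% of all genes called. The list median was -0.31 beside -0.31 over all genes. Jun went from 634 ± 390 to 335 ± 58.7 (-0.72) and Fos from 107 ± 65.4 to 95.6 ± 76.8 (-0.24), and neither passed. After rescaling 3 rose in C26, with Atf2 and Creb1 added, and Myc still fell, beside 28% of all genes called. In KPP 2 of 13 rose and none fell, beside 11.3% of all genes called in either direction. The 2 were Cebpb, an acute-phase factor gene (1.34, adjusted p = 0.0117), and Maff, a small MAF gene (1.77, adjusted p = 0.0337). The KPP list median was 0.71 beside 0.01 over all genes, and 0.50 beside -0.19 after rescaling. The KPP samples alone called none of the 13, beside 3.82% of 157 genes. The C26 samples alone called neither Mef2c nor Myc but Maff lower (-1.16, adjusted p = 0.0363), 1 of 12 beside 4.69% of 128 genes. The LLC samples alone called Cebpb higher (0.73, adjusted p = 0.0489), 1 of 12 beside 6.2% of 129 genes.

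Of 8 listed growth factor and cytokine genes that include known inducers of metalloproteinases, 5 were tested, and Il1a, Il6 and Tnf did not reach the limit. In C26 2 of the 5 fell, Csf1 (-0.94, adjusted p = 0.0254) and Il1b (-1.83, adjusted p = 0.0288), beside 30.4% of all genes called. The Il1b means were 21.9 and 5.07. Neither gene passed after rescaling, when 1 of the 5, Pdgfa, rose (0.72, adjusted p = 0.0266), beside 28% of all genes. In LLC and KPP none of the 5 passed, beside 0% and 11.3% of all genes. The C26 samples alone called 0 of the 4 tested there, beside 4.69% of genes.

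**Figure D4:**
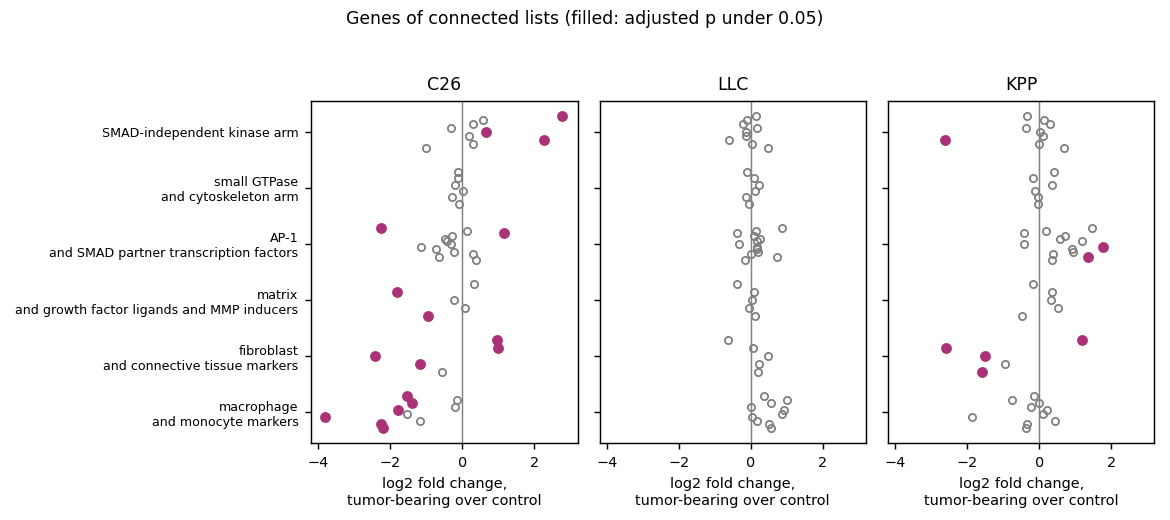
Log2 fold change (tumor-bearing over control) of each tested gene in 6 lists, 1 point per gene, by model; filled points passed limma's test at an adjusted p under 0.05. Map2k6 is the filled kinase point at 2.26 in C26 and at -2.61 in KPP, and 6 macrophage markers are filled below 0 in C26.

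Markers of the cells that make matrix and proteases moved beside these results. In C26, where Mmp3 fell, the summed signal of 5 fibroblast and connective tissue markers was 1724 to 5811 in controls and 700 to 1384 in tumor-bearing samples; C3 (-2.43) and C1s (-1.18) fell, and C7 (0.98) and Masp1 (0.96) rose. The summed signal of 10 macrophage and monocyte markers was 1270 to 7074 against 532 to 1462. Of the 10, 6 passed lower and 0 higher, beside 30.4% of all genes called in C26. The fat cell marker Cfd read 1390 to 9604 against 47.0 to 87.4. Control A alone gave the upper end of each of these C26 control ranges. Controls B and C read 2711 and 1724 for fibroblast markers, 1477 and 1270 for macrophage markers and 2003 and 1390 for Cfd. In KPP, where Mmp9 fell, the fibroblast marker sum was 3828 to 5443 against 1698 to 1884, with C7 (-2.60), C1ra (-1.59) and C3 (-1.51) lower and Masp1 (1.18) higher. The macrophage sum in KPP overlapped at 2794 to 6244 against 2206 to 4578, with 0 of 10 passing, beside 11.3% of all genes in KPP. Among 4 neutrophil markers on the panel, Cxcr1 was above background in 0 of 18 samples, and the sum of the 2 tested markers, Il1b and Ltb4r1, was 39.1 to 81.4 in KPP controls and 41.7 to 77.4 in tumor-bearing samples. In C26 that sum was 12.1 to 55.3 against 16.6 to 33.3, overlapping, while Il1b passed lower and Ltb4r1 higher. Neither gene reached 20 in at least 3 C26 samples, so both calls rest on low values and the C26 samples alone tested neither. After rescaling only Ltb4r1 passed. Of 2 endothelial markers Flt1 rose in KPP (0.93, adjusted p = 0.0121), with sums of 777 to 1015 against 1499 to 1918, but it did not pass after rescaling (0.72, adjusted p = 0.0529) or in the KPP samples alone (adjusted p = 0.0696). The other, Ptgir, passed in C26 after rescaling (1.04, adjusted p = 0.00501). Of 6 T and natural killer cell markers 5 were never above background. The other one, the chemokine gene Ccl5, read 8.12 to 50.3 in KPP controls against 1.11 to 1.73 in tumor-bearing samples. All the tumor-bearing values were under 20, and those of tumor A (1.27) and tumor C (1.11) were the lowest of their samples. Ccl5 passed downward on these low values (-3.51, adjusted p = 0.0162, and -3.67 after rescaling, adjusted p = 0.0120), so its size is uncertain. It was not among the genes tested in the KPP samples alone. In LLC, where no member passed, the fibroblast sum was 1022 to 1072 against 1095 to 1477 and the macrophage sum 977 to 1248 against 1658 to 2313. The LLC samples alone called 2 of 9 macrophage markers higher, Ccr2 (0.87) and Retnla (1.00), each with adjusted p = 0.0445. They also called 1 of 2 endothelial markers, Ptgir (0.64, adjusted p = 0.0489), beside 6.2% of 129 genes called in that fit. After rescaling, 4 of 10 macrophage markers were lower in C26, beside 28% of all genes called. C1s no longer passed there but passed in KPP (-1.14, adjusted p = 0.0350), making 4 fibroblast markers lower in KPP, beside 11.9% of all genes called. The C26 samples alone called none of the fibroblast or macrophage markers, and the KPP samples alone called C7, C1ra and C3. The part of these cells in the Smad7, Mmp3 and Mmp9 results was not tested.

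For each member the gene outside the 9 with the most similar pattern was named by Pearson's r of log2 values centred within each model, over all 18 samples, as a description without a test. Samples share their libraries and their group means, so r was also taken after centring within each of the 6 groups. Tgfb1 was most like Cfl1, an actin-severing protein gene (r = 0.85, and 0.84 within groups), Tgfbr1 most like Max, the MYC partner gene (0.84 and 0.78), and Tcf4 most like Atf2 (0.75 and 0.73). Tgfb2 was most like Hmgb1 (0.68 and 0.74), Tgfb3 most like Mapkapk2 (0.73 and 0.70) and Twist2 most like Tlr2 (0.70 and 0.68). Mmp3 was most like the IL-1 receptor gene Il1r1 (0.85 and 0.70). For Smad7 the nearest was Rapgef2 (0.76) and for Mmp9 it was C3 (0.83), and these values dropped to 0.19 and 0.54 within groups.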

How the data were processed

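Per the labels, 18 samples of total RNA from TA muscle were run on the nCounter panel. The deposited values are a normalized signal, made by the authors in steps that the sources used here do not state. As read from the values, every model has its own scaling to the 6 housekeeping genes (geometric means 532.0 in C26, 591.2 in LLC and 1769.1 in KPP). A background was subtracted in C26 and KPP, whereas LLC values under 20 stand at 20. Low values lay on steps of 1 count (100% of them within 0.1 of a step), which gave the counts quoted. Negative controls, which are unscaled, reached 8.81, 15 and 11.75.

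The deposited values were taken as log2(value + 1). A mean for each group was fitted over the 18 samples (12 residual degrees of freedom, two-sided tests) with limma 3.58.1 under R 4.3.3. Of 248 genes beside the housekeeping genes 168 were kept, LLC values counting only above 20. The fits were tested on simulated data. Members and lists were chosen with earlier results of these data known. The genes named are the 9 members, list genes that passed, housekeeping genes and the gene most like each member; Jun, Fos and the other list genes that did not pass were named after their values were seen. No p was adjusted over a list alone.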

Additional observations from a re-analysis of the deposited data

Results flagged for a closer look

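The tumor effect differed between models for Tgfbr1. Its C26 log2 fold change minus its KPP log2 fold change was -1.62 (SE 0.52, limma adjusted p = 0.0440), with all 3 tumor-bearing samples below their controls in C26 and all 3 above them in KPP. The call depended on the scaling: the difference was -1.01 after rescaling to 4 housekeeping genes (adjusted p = 0.141), -1.06 with median centring (adjusted p = 0.148) and -1.20 with quantile normalization (adjusted p = 0.0602). Without KPP tumor B it was -1.30 (adjusted p = 0.125), and without C26 control A -1.93 (adjusted p = 0.0126).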

How the results depend on the processing

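Counts of genes that passed moved with the fit. The 51 of C26 became 25 with 1 weight per group, 6 for C26 alone and 8 for C26 alone with rescaling; the 3 members became 0 and 1 in the last 2. The 0 of LLC became 1, 8 and 1 in the same order, with no member. The 19 of KPP became 6 alone, 10 alone with rescaling and 2 with the replicate block, and its 1 member, Mmp9, became 0 with quantile normalization, the block or group weights. For C26 minus LLC, 25 genes became 12 without a filter and 2 with the block, and 0 members became 1 with a minimum of 50, with values under 20 set to 20 or with trend and robust moderation, and 2 with rescaling, median centring or quantile normalization. For C26 minus KPP, 27 genes became 17 with the block. The 1 member, Tgfbr1 (lower), became 0 without a filter, with the block or with group weights. With a pseudocount of 20 there were 2 members lower, and with values under 20 set to 20 there were 1 higher and 1 lower. With rescaling, median centring or quantile normalization 2 members passed, both higher, and Tgfbr1 was not among them. For LLC minus KPP, 1 gene became 6 with a pseudocount of 20, 4 with values under 20 set to 20, 3 with median centring, 4 with quantile normalization, 0 with the block and 9 with group weights, and 0 members became 1 (Mmp9) with a pseudocount of 20 or values under 20 set to 20. Leaving out 1 sample at a time, the counts ran from 30 (without C26 tumor B) to 58 (without KPP tumor B) in C26, with 2 to 3 members; from 8 (without KPP tumor C) to 28 (without C26 control A) in KPP, with 0 to 1; from 8 (without LLC control B or C) to 31 for C26 minus LLC, with 0 to 1; from 17 (without KPP tumor B) to 42 (without C26 control A) for C26 minus KPP, with 0 to 2; and from 1 to 7 (without C26 control A) for LLC minus KPP. The cause of these changes was not tested. No called member changed sign in any of these fits; with values under 20 set to 20, Mmp9 in C26 stood at 0. The letters shared by the groups were taken as pairs only in the fit with the replicate block. Correlations of same-letter deviations ran from -0.15 to 0.10 in C26, -0.00 to 0.24 in LLC and -0.33 to 0.03 in KPP. Those of different letters ran from -0.16 to 0.13, -0.27 to 0.15 and -0.12 to 0.28 in the same order. With 3 samples a group these values cannot decide whether the letters mark pairs. Depth limits Mmp9 and Twist2, which rest on few counts in most tumor-bearing samples. It limits Mmp3 in C26 tumor B and C and in KPP tumor A, at about 1.8, 5.1 and 6.9 counts, and in LLC tumor A, at the floor.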
